A study of Arabidopsis with 9 samples.

Results

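The genes described here are 10 Arabidopsis genes of zinc transport and its regulation: the transporter genes ZIP1 (AT3G12750), ZIP2 (AT5G59520), ZIP3 (AT2G32270), ZIP4 (AT1G10970), ZIP5 (AT1G05300) and ZIP9 (AT4G33020), the zinc pump gene HMA2 (AT4G30110), PCR1 (AT1G14880), which encodes a small membrane protein, and the transcription factor genes bZIP19 (AT4G35040) and bZIP23 (AT2G16770). They were chosen by name, as 10 of the 33553 gene names in the deposited expression table, with their values in these comparisons already known. Expression was measured by RNA sequencing in untreated 14-day-old seedlings grown in long days, with 3 samples each of syd-5, swi3d-1 and the wild type (WT), 9 in all. Both mutants affect SWI/SNF chromatin remodelling complexes: SYD is a catalytic ATPase of such complexes, and SWI3D is one of their core subunits. The zinc supply of the seedlings is not given in the sources used here, nor is what kind of mutation each allele is. The authors' deposited table holds 3 conditions, syd-5, 310-3d and WT. The name 310-3d matches no label, so it is used as it stands and no genotype is attached to it, although the labels' swi3d-1 has no entry in the table under its own name.

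Zinc is a cofactor of many enzymes and transcription factors, and plants take it up from the soil as a divalent cation. ZIP proteins carry zinc and related metals into the cytoplasm. P-type ATPases such as HMA2 pump zinc out of cells, and in roots this loads it into the xylem for transport to the shoot. bZIP19 and bZIP23 are zinc-sensing transcription factors that switch on several ZIP genes, ZIP4 among them, when zinc is scarce.

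The table gives 1 pooled FPKM (a fragment count corrected for transcript length and library size) for each locus and condition, without values per sample or read depth, so no spread between replicates could be computed. The error used below is the implied standard error, which is the log2 ratio of 2 conditions divided by the authors' test statistic. The median of this error over all tested loci with at least 1 FPKM was 0.295 (syd-5) and 0.294 (310-3d). A locus is called here when its q in the authors' deposited table is below 0.05, and that q follows from p-values that are sharper than the implied error (their normal deviates were a median 1.74 times the statistic). Because the 10 genes were chosen with these values known, their q-values and calls describe the genes and lend support to nothing. The labels were checked on the targeted genes. SYD had 4.11 FPKM in syd-5 and 24.3 in 310-3d, against 23.1 in WT. SWI3D had 16.0 FPKM in syd-5 and 3.81 in 310-3d, against 16.4 in WT. SYD was thus called lower in syd-5 only, and SWI3D in 310-3d only (q = 0.000567 for each in the authors' deposited table).

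The levels of the 10 genes spanned a wide range that was similar in the 3 conditions. PCR1 and ZIP2 were the strongest on the FPKM scale in each condition, followed by bZIP19 at 24.9 FPKM in syd-5, 23.5 in 310-3d and 28.2 in WT. ZIP1, ZIP3, ZIP4, ZIP5 and bZIP23 lay between 4.07 and 10.3 FPKM in the 3 conditions, and their order differed from one condition to another. HMA2 ranked ninth and ZIP9 last in all of them. Without values per sample, it cannot be said which neighbours in this order differ beyond their spread.

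**Figure D1:**
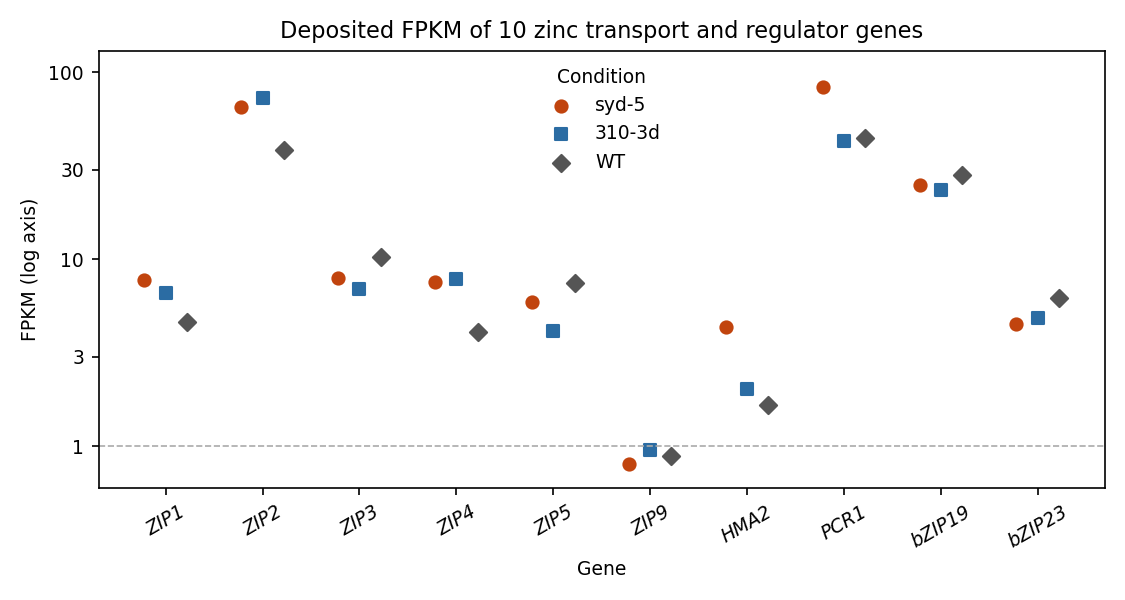
Deposited FPKM of the 10 genes on a log axis, with 1 pooled value for each condition (circles syd-5, squares 310-3d, diamonds WT) and a dashed line at 1 FPKM. ZIP2 is higher in both other conditions than in WT, PCR1 is highest in syd-5, with 310-3d close to WT, and ZIP9 stays below the line in all 3.

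Of the 10 genes, 9 reached 1 FPKM in at least 1 condition, and all 10 were tested by the authors. In syd-5, 2 were called, ZIP2 and PCR1, both higher than in WT, where 27.9% of all tested loci were called and 13.8% were called higher. In 310-3d, 3 were called: ZIP2 was higher, and ZIP3 and ZIP5 were lower. There 28.1% of all tested loci were called, 13.7% higher and 14.4% lower. The median log2 fold change of the 9 genes, on the scale of log2(FPKM + 1), was 0.64 in syd-5, against 0.01 over all tested loci, and -0.06 in 310-3d, against -0.01. Without ZIP1, ZIP4 and HMA2, whose loci overlap other loci of the table, the median of the other 6 was -0.23 in syd-5 and -0.27 in 310-3d, so the direction in syd-5 rests on these 3 genes. Both comparisons use the same WT values and are therefore not independent of each other. In whole seedlings, fewer cells of a type and less RNA per cell cannot be told apart.

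**Figure D2:**
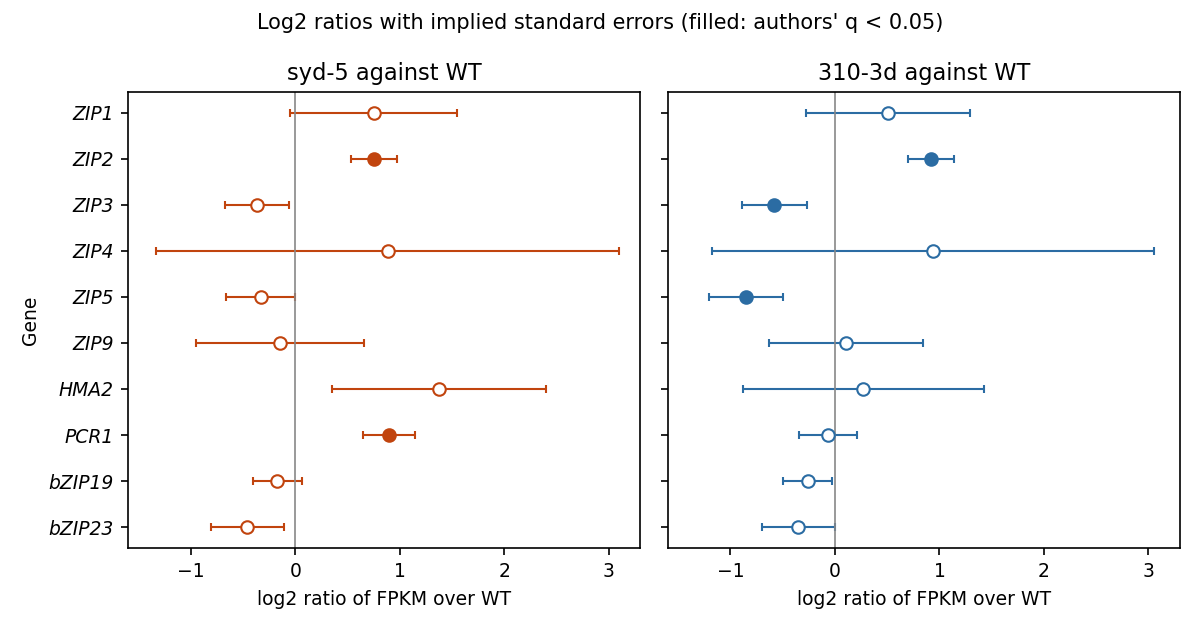
Log2 ratio of FPKM over WT for each gene in syd-5 (left) and 310-3d (right), with bars of 1 implied standard error on either side. Filled points have q < 0.05 in the authors' deposited table: ZIP2 and PCR1 in syd-5, and ZIP2, ZIP3 and ZIP5 in 310-3d. The bars of ZIP1, ZIP4 and ZIP9 reach across 0 in both panels.

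ZIP2 was called in both comparisons. The gene (chromosome 5, 23991253 to 23992798, TAIR10) encodes a plasma membrane transporter of zinc and manganese that is known mainly from the root. It had 64.8 FPKM in syd-5 and 72.8 in 310-3d, against 38.5 in WT, so both values lay well above the wild type. The fold over WT was 1.68 in syd-5 (log2 ratio 0.75, implied standard error 0.224) and 1.89 in 310-3d (log2 ratio 0.92, implied standard error 0.223), each with q = 0.000567 in the authors' deposited table. That q is the smallest in the table and is shared by many loci. A log2 ratio of at least this size in either direction was found at 18.6% of all tested loci in syd-5 and at 14.0% in 310-3d.

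ZIP3 and ZIP5, transporter genes that respond to zinc deficiency, lay below WT in both conditions. ZIP3 (chromosome 2, 13704221 to 13706860) had 7.97 FPKM in syd-5 and 6.90 in 310-3d, against 10.3 in WT. Its log2 ratio was -0.37 in syd-5 (implied standard error 0.306), which did not pass in the authors' deposited table (q = 0.122), and -0.58 in 310-3d (implied standard error 0.313), which did (q = 0.0112). ZIP5 (chromosome 1, 1545080 to 1547849) had 5.88 FPKM in syd-5 and 4.11 in 310-3d, against 7.41 in WT. In 310-3d it stood at 0.555 times the WT level, a log2 ratio of -0.85 (implied standard error 0.352, q = 0.000567 in the authors' deposited table). In syd-5 the log2 ratio was -0.33 (implied standard error 0.333, q = 0.233 in the authors' deposited table). Whether either gene differs between syd-5 and 310-3d was not tested. ZIP9 (chromosome 4, 15932419 to 15934685), another gene induced by zinc deficiency, was barely expressed, with 0.803 FPKM in syd-5 and 0.958 in 310-3d, against 0.889 in WT.

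ZIP1 and ZIP4 had higher values than WT in both conditions but neither was called. ZIP1, which encodes a transporter located to the vacuolar membrane, had 7.76 FPKM in syd-5 and 6.57 in 310-3d, against 4.62 in WT. Its log2 ratio of 0.75 in syd-5 equals that of ZIP2 at this rounding, yet its implied standard error was 0.801, and q was 0.283 in the authors' deposited table. In 310-3d it was 0.51 with an implied standard error of 0.788 (q = 0.505 in the authors' deposited table). ZIP4, the best-known target of bZIP19 and bZIP23, had 7.51 FPKM in syd-5 and 7.80 in 310-3d, against 4.07 in WT. These are ratios of 1.84 and 1.91, with log2 ratios of 0.88 and 0.94. The implied standard errors were 2.21 in syd-5 and 2.12 in 310-3d (q = 0.732 and 0.679 in the authors' deposited table). Each error is thus more than 2 times the log2 ratio it belongs to.

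ZIP1, ZIP4 and HMA2 lie at loci that overlap other loci of the table. The locus that carries ZIP4 (chromosome 1, 3659163 to 3669902, TAIR10) is 5.23 times as long as the gene in the RefSeq annotation, carries the merged names AT1G10970 and AT1G10980, whose reads cannot be split, and overlaps a separate locus named AT1G10950 and AT1G10960. That neighbouring locus had 620.1 FPKM in syd-5 and 566 in 310-3d, against 1153 in WT, far above the level given for ZIP4. The locus of ZIP1 (chromosome 3, 4049253 to 4053346) is 2.64 times as long as its gene and overlaps that of AT3G12740, with 60.2 FPKM in syd-5, 65.1 in 310-3d and 56.1 in WT. RefSeq also places an antisense RNA gene, AT3G02585, within it. The locus of HMA2 (chromosome 4, 14713378 to 14725295) is 2.27 times as long as its gene and overlaps AT4G30100, with 18.4 FPKM in syd-5, 19.6 in 310-3d and 27.9 in WT. The other 7 genes lie at loci that overlap no other locus of the table, with lengths between 0.809 and 0.968 times that of the RefSeq gene. When all tested loci were split by mean FPKM into 5 classes of equal size, among loci of the same class 0.488% had a larger implied standard error in syd-5 than ZIP4, 8.41% than ZIP1 and 21.5% than HMA2. In 310-3d the shares were 0.597% for ZIP4, 8.32% for ZIP1 and 16.9% for HMA2, beside 16.4% for PCR1, whose locus overlaps no other. The strandedness of the libraries is not given in the sources used here, and without strand the reads of overlapping genes cannot be told apart. The part of the overlapping genes in these 3 values was not tested.

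**Figure D3:**
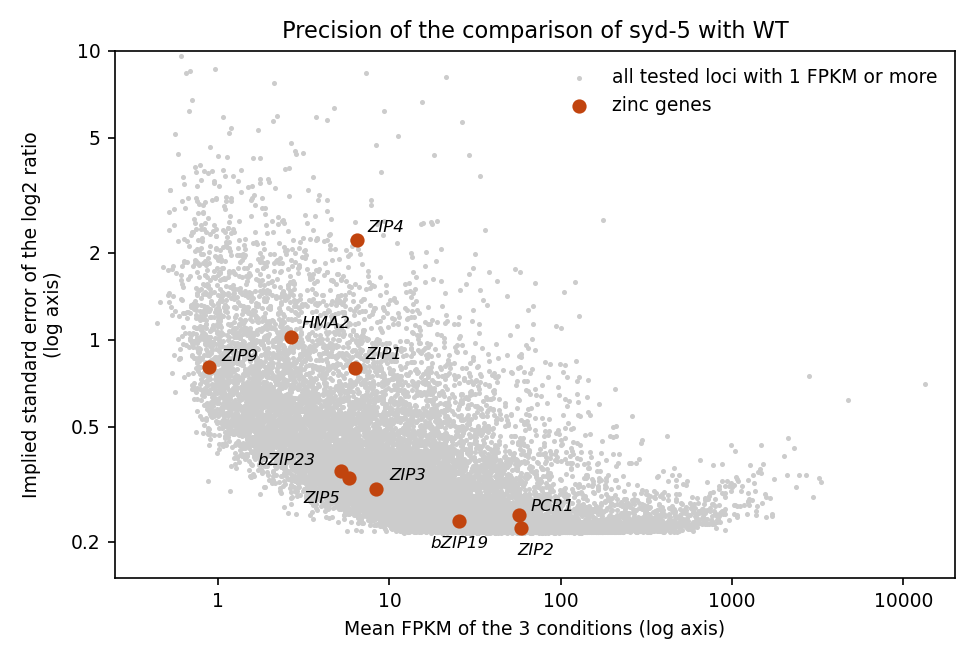
Implied standard error of the log2 ratio of syd-5 over WT against the mean FPKM of the 3 conditions, both on log axes, for all tested loci with at least 1 FPKM (grey) and the 10 zinc genes (orange). ZIP4 at 2.21, HMA2 at 1.03 and ZIP1 at 0.801 lie above most loci of like level. ZIP9 did not reach 1 FPKM and is shown for its position, and 6 loci above 10 are outside the axis.

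HMA2, which with HMA4 moves zinc into the xylem in roots, had the largest ratio to WT of the 10 genes in syd-5. Its level was 4.31 FPKM in syd-5 and 2.01 in 310-3d, against 1.66 in WT. The value in syd-5 was 2.59 times that in WT, a log2 ratio of 1.37, and 6.77% of all tested loci had one at least as large in either direction. The implied standard error was 1.03, and q was 0.127 in the authors' deposited table. In 310-3d the log2 ratio was 0.27 with an implied standard error of 1.16 (q = 0.837 in the authors' deposited table). HMA2 resembles HMA3 and HMA4 in sequence, and how reads that match several of them were placed is not given in the sources used here.

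PCR1, a plasma membrane protein known for conferring cadmium resistance, was the member whose level in syd-5 departed most from 310-3d among the genes called in either comparison. The gene (chromosome 1, 5132535 to 5133716) had 82.9 FPKM in syd-5 and 42.6 in 310-3d, against 44.5 in WT, so 310-3d and WT were close and syd-5 was higher. Relative to WT the log2 ratio was 0.90 in syd-5 (implied standard error 0.247, q = 0.000567 in the authors' deposited table). In 310-3d it was -0.06 (implied standard error 0.277, q = 0.840 in the authors' deposited table). The neighbouring gene PCR2, which encodes a zinc exporter of the same family, lies next to PCR1 on chromosome 1. It had 121.0 FPKM in syd-5 and 115.5 in 310-3d, against 79.8 in WT, and was called higher in both comparisons.

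The genes of the zinc sensors were lower than WT by value in both conditions, and none of the differences was called. bZIP19 (chromosome 4, 16680233 to 16682416) had log2 ratios of -0.18 in syd-5 (implied standard error 0.236, q = 0.411 in the authors' deposited table) and -0.26 in 310-3d (implied standard error 0.237, q = 0.170 in the same authors' deposited table). bZIP23 (chromosome 2, 7279431 to 7281157) had 4.50 FPKM in syd-5 and 4.86 in 310-3d, against 6.19 in WT. Its log2 ratios were -0.46 (implied standard error 0.352) in syd-5 and -0.35 (0.346) in 310-3d, with q = 0.0966 and q = 0.225 in the authors' deposited table.

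Set side by side, 310-3d and syd-5 had like values for most of the 10 genes. The ratio of 310-3d to syd-5 lay between 0.847 and 1.19 for ZIP1, ZIP2, ZIP3, ZIP4, ZIP9, bZIP19 and bZIP23. It was 0.700 for ZIP5, 0.514 for PCR1 and 0.466 for HMA2, which were thus lower in 310-3d by value. The authors' deposited table holds no test between these conditions, and the differences were not tested.

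Beyond the 10 genes, 7 lists of other genes of zinc and metal handling held 56 genes. These lists, like the marker lists below, were chosen with earlier results of these data known. Their counts therefore describe the genes and lend support to nothing. Of the 56 genes, 41 were at loci that were tested and reached 1 FPKM. Of these 41, 8 rose and 13 fell in syd-5 by the q of the authors' deposited table, and 7 rose and 13 fell in 310-3d, beside the 27.9% and 28.1% of all tested loci called. Their median log2 fold change on the scale of log2(FPKM + 1) was -0.15 in syd-5 and -0.10 in 310-3d, against 0.01 and -0.01 over all tested loci. Of the 41, 10 were at merged loci. At loci with 1 gene name alone, the calls came to 17 in syd-5 and 16 in 310-3d, from 21 and 20. In the other ZIP family genes, 2 of 7 tested fell in syd-5 and 3 of 7 in 310-3d, and none rose in either. Of all tested loci, 14.1% were called lower in syd-5 and 14.4% in 310-3d. IRT1, the iron uptake transporter of the root epidermis that also carries zinc, fell to 0.801 FPKM in syd-5 and 0.803 in 310-3d, against 10.6 in WT (log2 ratios -3.72 and -3.72). ZTP29 fell in 310-3d (19.6 FPKM, against 25.8 in WT), and the merged locus that holds ZIP11 fell in both. IRT3, named because its locus too is imprecise, had 21.7 FPKM in syd-5 and 18.2 in 310-3d, against 16.3 in WT, with an implied standard error of 1.87 in syd-5.

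The other heavy metal ATPase genes were called higher only, with 4 of 6 tested in syd-5 and 3 of 6 in 310-3d by the authors' deposited table. Over all tested loci, the share called higher was 13.8% in syd-5 and 13.7% in 310-3d. No list was tested against such shares, and 3 of these 6 genes were at merged loci. HMA4, the partner of HMA2 in xylem loading, had 22.3 FPKM in syd-5 and 18.3 in 310-3d, against 15.3 in WT. Its log2 ratio was 0.54 in syd-5 (q = 0.00460 in the authors' deposited table), while 310-3d did not pass (q = 0.257 in the authors' deposited table). A second locus with the name of HMA4 had 5.46 FPKM in syd-5 and 4.07 in 310-3d, against 3.36 in WT. That locus was not called (q = 0.723 and 0.903 in the authors' deposited table). HMA5, HMA7 and HMA8, which pump copper, were called in both comparisons. HMA8 (PAA2), which supplies the thylakoid lumen with copper, had 43.9 FPKM in syd-5 and 51.3 in 310-3d, against 24.5 in WT. HMA7 (RAN1), which loads copper onto ethylene receptors, rose to 53.9 and 55.1 FPKM, against 40.4 in WT, and HMA5, at a merged locus, rose to 7.45 and 8.23, against 4.66.

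Among the genes of nicotianamine synthesis and ZIF transport and the cation diffusion facilitator genes, most calls were falls. Beside them, 14.1% of all tested loci were called lower in syd-5 and 14.4% in 310-3d, and 13.8% and 13.7% higher. NAS1 makes nicotianamine, a metal chelator, and fell to 19.8 FPKM in syd-5 and 19.0 in 310-3d, against 183.8 in WT. NAS4 fell to 8.14 FPKM in syd-5 and 5.92 in 310-3d, against 20.0 in WT, and ZIF1, a vacuolar transporter of nicotianamine, fell to 16.7 and 15.1, against 33.5. NAS2 went the other way in 310-3d, at 2.93 FPKM, with 1.40 in syd-5 (q = 0.669 in the authors' deposited table) and 1.13 in WT. In that list of 7 tested genes, 1 rose and 5 fell in syd-5, and 2 rose and 4 fell in 310-3d. These counts include 1 gene at a merged locus, which fell in both comparisons. Of 10 tested cation diffusion facilitator genes, 1 rose and 3 fell in each comparison. MTP1, which moves zinc into the vacuole, fell to 42.0 FPKM in syd-5 and 39.8 in 310-3d, against 54.8 in WT, MTP7 fell to 9.92 and 10.8, against 15.01, and the merged locus with MTP10 fell to 61.8 and 69.9, against 111.0. MTP5 rose to 10.2 and 9.98 FPKM, against 6.76 in WT.

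Metallothioneins, small proteins that bind zinc and copper, gave 3 falls and no rise among 5 tested genes in each comparison of the authors' deposited table. The shares called lower over all tested loci were 14.1% in syd-5 and 14.4% in 310-3d, and those called higher 13.8% and 13.7%. MT3 fell to 1241 FPKM in syd-5 and 1507 in 310-3d, against 2362 in WT. MT2A fell to 1363 and 1503 FPKM, against 2243 in WT, and MT2B to 2520 and 2569, against 3873. Of 5 tested genes of the PCR family beside PCR1, 2 rose in syd-5 (PCR2 and PCR8) and 1 in 310-3d (PCR2). PCR8 had 47.7 FPKM in syd-5 and 33.2 in 310-3d, against 33.97 in WT, an order like that of PCR1, and its difference between syd-5 and 310-3d was not tested either.

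**Figure D4:**
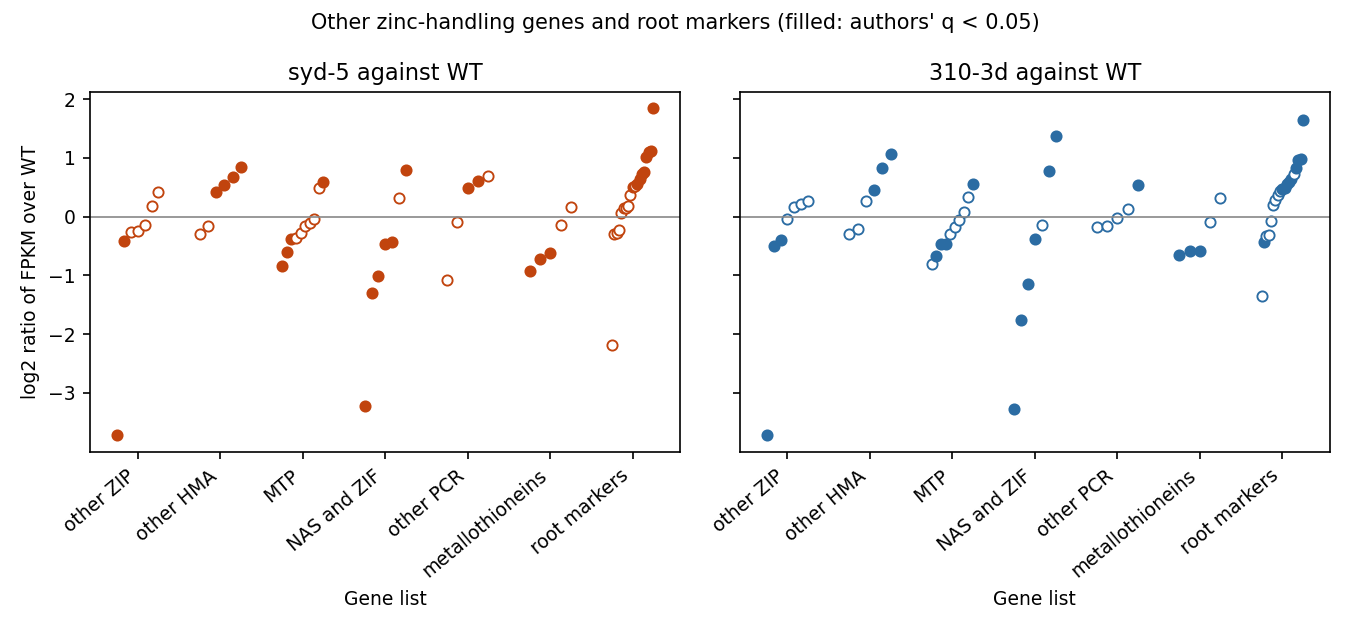
Log2 ratio of FPKM over WT for each tested gene of 6 lists of zinc and metal handling and of the root markers, in syd-5 (left) and 310-3d (right), each point 1 gene. Filled points have q < 0.05 in the authors' deposited table. The lowest points are IRT1 at -3.72 and NAS1 at -3.22 in syd-5, and all called ATPase genes lie above 0.

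Several of these transporters are known chiefly from roots, and markers of root tissue moved in the same samples. Of 20 root marker genes, 19 were tested, of which 9 rose and none fell in syd-5, and 9 rose and 1 fell in 310-3d, by the q of the authors' deposited table. Over all tested loci, 13.8% were called higher and 14.1% lower in syd-5, and 13.7% and 14.4% in 310-3d. The median log2 fold change of the root markers was 0.43 in syd-5 and 0.40 in 310-3d on the scale of log2(FPKM + 1). The endodermal genes CASP5 and CASP1 had 7.19 and 52.7 FPKM in syd-5 and 6.28 and 43.4 in 310-3d, against 2.01 and 24.6 in WT. SCR, another gene of the endodermis, was at 22.5 FPKM in syd-5 (q = 0.0891 in the authors' deposited table) and fell to 20.4 in 310-3d, against 27.6 in WT. The root hair genes EXPA7 and EXPA18 and the stem cell gene WOX5 had values below WT in both conditions, none of them called. The summed level of the root markers was 277.9 FPKM in syd-5 and 254.4 in 310-3d, against 206.1 in WT, and no marker was at 0 in any condition. Leaf markers gave 2 falls, GLK1 and GLK2, and no rise among 8 tested, with a summed level of 18237 FPKM in syd-5 and 17956 in 310-3d, against 24852 in WT. Most of that sum was RBCS1A, a Rubisco subunit gene that was not called, at 12006 FPKM in syd-5 and 11515 in 310-3d, against 16594 in WT. GLK1 and GLK2 together came to 43.9 FPKM in syd-5 and 46.4 in 310-3d, against 106.9 in WT. Both tissues of a seedling were thus represented in each condition. The part of root or leaf tissue in the values of ZIP2, PCR1 and the other transporters was not tested.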

How the data were processed

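Total RNA of whole seedlings was sequenced as paired reads, per the labels' protocols. Tools named in the submitters' processing notes are Cuffdiff 2.1.1, Cufflinks 2.1.1 and TopHat2 2.1.1, with TAIR10 as the genome, and no settings are stated there. The values are FPKM as the authors deposited them, pooled to 1 per locus in each condition. For every comparison with WT, the authors also deposited a test score (their statistic), a p-value and a q-value per locus, per the file headers. The planned limma model needs values per library and could not be used, so calls were made at 0.05 on the q that the authors give. Counts over loci used the 18505 of 31747 whose highest FPKM in any condition was 1 or more. A gene at several loci was taken at the one with the highest mean FPKM, and 2056 loci carry merged names. Medians were taken of log2(FPKM + 1), where changes of low genes look smaller than they are, and single log2 ratios have no pseudocount. Starts were raised by 1 to count from 1. Symbols and neighbours came from a RefSeq table of TAIR10.1. The members and lists were chosen with earlier results of these data known. Named genes were all 10 members, SYD, SWI3D, up to 4 called genes with the largest change per list, and up to 3 per marker list. IRT3, SCR, EXPA7, EXPA18, WOX5, RBCS1A and the genes of the closing part fall outside this rule and were picked with their values in view. The functions were tested on simulated data (Python 3.11.15, pandas 2.3.3). Alternatives were other thresholds, filters, pseudocounts, an adjustment within each comparison, single-name loci and quantile normalization. Promoter motifs were not analysed here.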

Additional observations from a re-analysis of the deposited data

How the results depend on the processing

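With a doubling or halving required as well, the calls among the 10 genes came to 0 in syd-5 and 0 in 310-3d, where q < 0.05 alone had given 2 and 3, and those in the 7 lists came to 4 in syd-5 and 6 in 310-3d, where it had given 21 and 20. None of the called changes of the 10 genes thus reached 2-fold. The share of all tested loci that passed both cuts was not counted, so this drop cannot be called particular to these genes. At q < 0.01, ZIP3 was no longer called in 310-3d. The calls of ZIP2 and PCR1 in syd-5, and of ZIP2 and ZIP5 in 310-3d, were made under each of the other thresholds, filters and adjustments run. Calls rest on the deposited q, which quantile normalization of pooled values cannot change, so it bears on fold changes alone. Leaving out ZIP1, ZIP4 and HMA2, an alternative chosen after seeing the data, turned the median of the 9 genes in syd-5 to -0.230. Of 60 fold changes recomputed with another pseudocount or with quantile normalization, 59 had the same sign. The exception was ZIP9 in 310-3d, at -0.0231 with quantile normalization and 0.05 without it. No paired analysis was possible because the table holds 1 pooled value per condition, and for the same reason no replicate could be left out. Without read depth, values near 1 FPKM and below have no detection limit here.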

Other observations

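Several close relatives of the 10 genes were at or near 0 in these seedlings. ZIP8 and ZIP10 were listed at 0 FPKM in all 3 conditions, and the authors did not test them. ZIP12 stood at 0.104 FPKM in syd-5 and 0.0424 in 310-3d, against 0.0471 in WT. ZIP7 was at 0.0866 FPKM in syd-5 and 0.0162 in 310-3d, against 0.445 in WT. HMA3, the neighbour of HMA2 on chromosome 4, had 0.376 FPKM in syd-5 and 0.502 in 310-3d, against 0.235 in WT, also untested. PCR5 had 0.110 FPKM in syd-5 and was listed at 0 in 310-3d, against 0.994 in WT. It stayed outside the counts because it did not reach 1 FPKM, although its q in 310-3d was 0.000567 in the authors' deposited table.

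bZIP24, the relative of bZIP19 and bZIP23 that is known from salt stress, appeared at a pair of loci. The locus with its name alone had 0.304 FPKM in syd-5 and 0.309 in 310-3d, against 0.173 in WT. The locus where it is merged with AT3G51980 had 24.8 FPKM in syd-5 and 24.9 in 310-3d, against 23.0 in WT (q = 0.701 and 0.682 in the authors' deposited table), and its reads cannot be split between the names.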
